A study of Mus musculus with 6 samples.

Results

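The S100 calcium-binding protein family was followed in crypt epithelium of the mouse intestine, through the 10 genes S100a4, S100a6, S100a8, S100a9, S100a10, S100a11, S100a13, S100a14, S100a16 and S100g. They were chosen by symbol, with all 6 libraries, from a table of 24930 genes. Messenger RNA had been sequenced from 3 control libraries and 3 libraries of β-cateninGOF/+ crypts, called mutant here, which carry 1 mutant β-catenin allele, all 4 days after induction. The question behind the comparison, per the series text, was whether programmes of regeneration and of the fetal gut became active. The sources used here do not state the strain, the age, the driver of induction, or whether control animals carried or received any part of it. The labels do not say that libraries came from separate animals, so p-values reflect only library-to-library spread, some of which may be technical.

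S100 proteins are small, mostly dimeric proteins that bind calcium through a pair of EF-hand loops and then dock onto target proteins. Inside the cell they act on the cytoskeleton, membranes and enzymes. Some are released and signal to other cells through receptors such as RAGE, encoded by Ager, and Tlr4. In the gut, S100a8 and S100a9 together form calprotectin, an antimicrobial protein of neutrophils that is used as a marker of intestinal inflammation, and S100g is the calbindin that carries calcium through absorptive cells.

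Abundance was deposited as a normalized value for each gene, given here as units. Values behaved as reads divided by transcript length, so levels of different genes can be set side by side, but the absolute depth is unknown. For a transcript of 500 bases, near the length of most S100 messages, 1 read was worth between 0.152 and 0.255 units, as estimated from the steps between the lowest values in each library. Library totals ran from 645225 to 1268770 units, and alpha-defensins of Paneth cells took 11.1 to 49.9% of them. Epithelial identity was plain in every library: 7 keratin, adhesion and villin markers of epithelium, such as Epcam and Krt8, summed to 4611 to 5638 units in control and 5241 to 7028 units in mutant libraries. Xist and Y-linked genes marked control replicates 1 and 2 and mutant replicate 1 as male and the other 3 libraries as female. In bulk RNA, a change in the number of cells of a type and a change in RNA per cell cannot be told apart.

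Most S100 genes stood higher in mutant than in control crypts, by amounts set largely by mutant replicate 3, and none passed the test. For 6 of the 10 genes (S100a4, S100a6, S100a8, S100a9, S100a10 and S100a16) all 3 mutant values exceeded all 3 control values, as for 6.39% of the 24930 genes in the table. Of the 9 members that could be tested, S100a8 being left out, this was 5, as for 8.34% of the 11837 genes tested, and for 0 members every mutant value lay below. Of the 9 genes whose mean reached 1 unit, 8 were higher (47.3% of all genes tested) and only S100a13 lower (52.7%), and 0 passed at an adjusted p under 0.05 in limma, where 0% of all genes tested were called higher and 0.0169% were called lower. S100a4 and S100a9 reached that mean only through their mutant values, so they had to be higher, and counts and medians over the 9 genes describe the list and support nothing. Of the 7 members whose control mean reached 1 unit, 6 were higher and 1 lower. An unadjusted p under 0.05 in limma was found for S100a14, with a higher mean, and for S100a4 and S100a9, where 4.72% of all genes tested were higher at that p. The median log2 difference was 1.05 for the 9 genes and -0.02 for all genes tested.

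Markers of crypt composition also had different means in the same libraries, mostly with overlapping groups, and 0 of those listed here passed in limma. All 6 crypt base markers had lower means in mutant crypts, where 52.7% of all genes tested had a log2 difference below 0. Only Smoc2 of the 6 had all mutant values below all control values, as for 8.37% of genes tested. The 6 summed to 9512 to 28827 units in control and 4276 to 14512 units in mutant libraries, which overlap. Lyz1, also a Paneth cell marker, gave 26267 of the 28827 units in control replicate 1. Olfm4, a stem cell gene, had 800, 1195 and 472 units across the controls and 533, 731 and 54.6 across the mutants. All 8 Paneth cell markers, 2 of them shared with the crypt base list, also had lower means. For 0 of the 8 did every mutant value lie below every control value. Lymphocyte markers summed to 96.6 to 159 units in control libraries and to 161, 81.3 and 353 units in mutant replicates 1, 2 and 3. The part of composition in the S100 values was not tested.

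**Figure D1:**
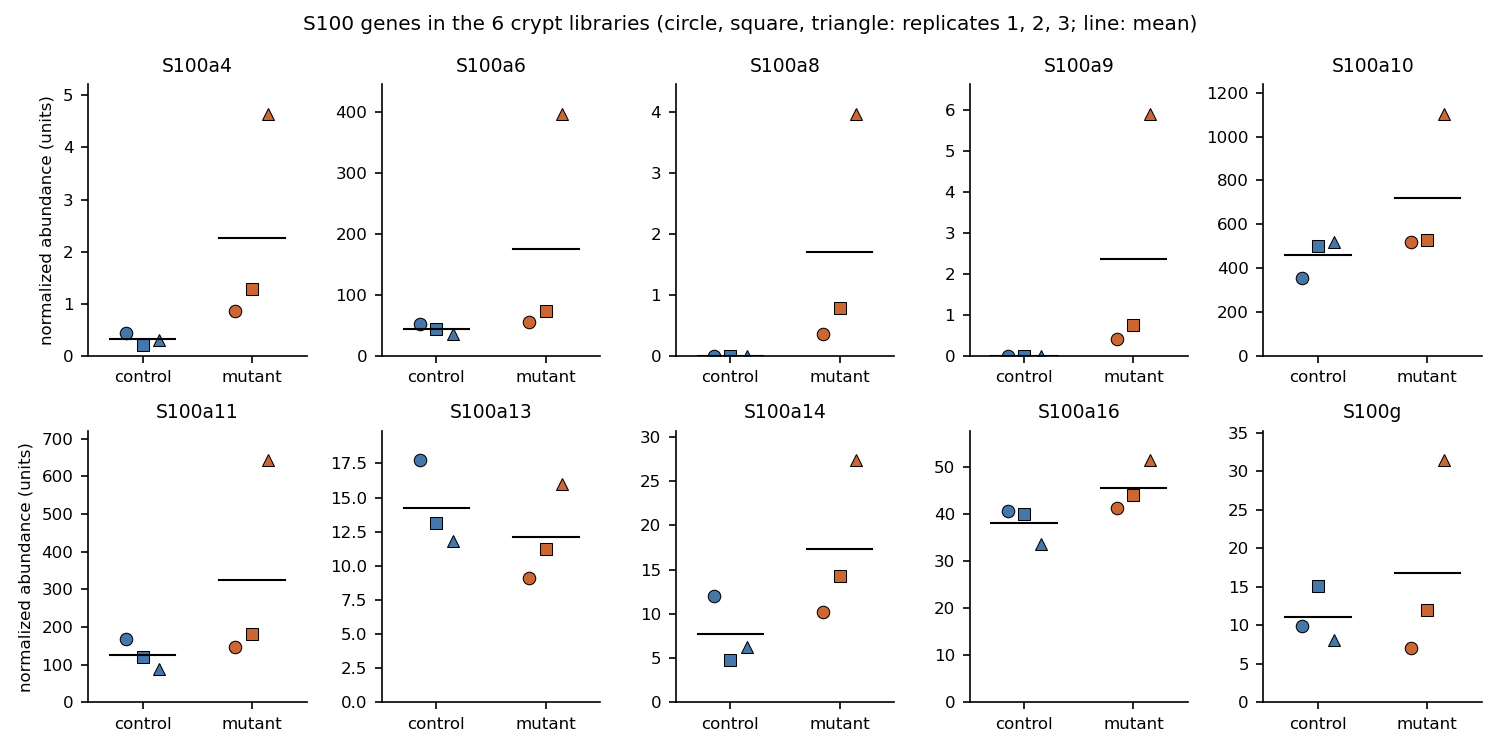
Units of each S100 gene (y axis, linear, from 0) in the 3 control and 3 mutant libraries (x axis), with symbols for replicates 1, 2 and 3 and a line at the group mean. Mutant replicate 3 is the highest of the 6 libraries for 9 of the 10 genes, all but S100a13.

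Mutant replicate 3 had the highest of the 6 values for 9 of the 10 genes, which held for 29.7% of all genes tested. Without it, both remaining mutant values lay above every control value for the same 6 genes, 5 of them among the 9 tested (11% of all genes tested). This had to hold, since all 3 of their mutant values exceeded every control value, so it says nothing about stability. No other member was added without mutant replicate 3, and the differences shrank. The median log2 difference was then 0.21 over the 7 members left in the test, and S100a6 was the 1 with an unadjusted p under 0.05 in limma, as were 6.06% of all genes in either direction. That number was 0 without control replicate 2 (3.77% of all genes), without control replicate 3 (7.05%) and with sex as a covariate (3.74%). It was 1 without control replicate 1 (4.67%) and 5 without mutant replicate 1 (8.43%). The separation was narrow for several of the 6 genes. When libraries were rescaled by their upper quartile, it held for 3 of them, S100a4, S100a8 and S100a9. It held for 8 genes without control replicate 1 or without mutant replicate 1, with S100a11 and S100a14 added. Mutant replicate 1 had the lowest of the 3 mutant values for all 10 genes, as for 22.4% of all genes tested.

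In control crypts members ranged from genes listed at 0 to one of the most abundant messages. S100a10 stood first at 460 ± 89.5 units (mean ± SD, n = 3 here and below), above 98.3% of all genes tested, and S100a11 second at 125 ± 40.3 units. S100a6 at 44.1 ± 7.47 and S100a16 at 38.1 ± 3.83 units overlapped in their values. Below them S100a13 at 14.2 ± 3.10, S100g at 11.1 ± 3.59 and S100a14 at 7.69 ± 3.79 units also overlapped. S100a4 stood at 0.316 ± 0.112 units, and S100a8 and S100a9 were listed at 0 in all 3 control libraries. In mutant replicate 3 the first places went to S100a10, S100a11 and S100a6, in that order.

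S100a10 and S100a11 are membrane-associated partners of annexins. S100a10, which has lost calcium binding and holds annexin A2 at the plasma membrane, had 357, 502 and 521 units in control replicates 1 to 3 and 522, 527 and 1105 units in mutant replicates 1 to 3. Apart from mutant replicate 3 the groups met within about a unit, with control replicate 3 at 520.7 and mutant replicate 1 at 521.5 units. The log2 difference was 0.57 ± 0.35 (SE; limma, adjusted p 0.598), and 0.21 ± 0.24 without mutant replicate 3 (limma, adjusted p 0.951). S100a11, a partner of annexin A1 that takes part in membrane repair and growth control, had 168, 121 and 87.9 units across the controls and 146, 182 and 643 across the mutants. Its groups overlapped, because mutant replicate 1 lay below control replicate 1. The log2 difference of 1.08 ± 0.56 (limma, adjusted p 0.589) became 0.42 ± 0.29 without mutant replicate 3. Reads of S100a11 may also come from near copies: its transcript matched the GRCm38 transcripts of Gm12854 and Gm7665, at 99.0 and 98.7% of 297 aligned bases, so its value is uncertain.

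The annexin partner of S100a10 was higher by more than S100a10 itself. Anxa2 had 313, 387 and 446 units across the controls and 608, 468 and 1192 across the mutants, a log2 difference of 0.88 ± 0.36 (limma, adjusted p 0.589). The ratio of S100a10 to Anxa2 units was 1.14, 1.3 and 1.17 for the controls and 0.858, 1.13 and 0.927 for the mutants. All 3 mutant ratios were below all 3 control ratios, a log2 difference of -0.32 with p = 0.1 in a 2-sided exact permutation test, the smallest p that 3 against 3 can give. This ratio is within a library and does not depend on scaling between libraries. Without mutant replicate 3 the log2 difference was -0.29. Its sign could not change, since every mutant ratio lay below every control ratio.

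**Figure D2:**
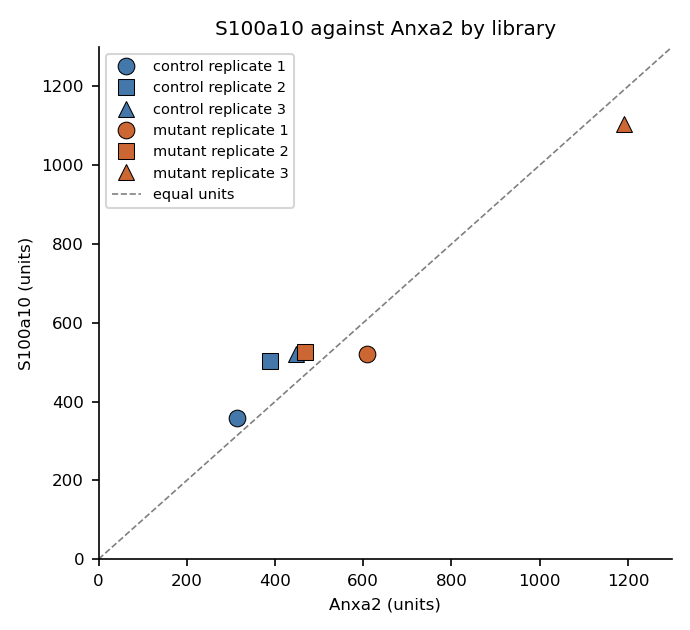
S100a10 units (y axis) against Anxa2 units (x axis) in each library, with a dashed line where both are equal. The control libraries and mutant replicate 2 lie above the line and mutant replicates 1 and 3 below it.

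S100a6, or calcyclin, is a cytosolic protein of growing epithelial and stromal cells that binds annexins and a ubiquitin ligase adaptor. It had 51.7, 43.8 and 36.7 units across the controls and 55.2, 73.9 and 397 across the mutants. Mutant replicate 3 held 7.60 times the mean of the other 5 libraries, while mutant replicate 1 was within 4 units of control replicate 1. The log2 difference was 1.41 ± 0.69 (limma, adjusted p 0.589). Without mutant replicate 3 it was 0.54 ± 0.21 (limma, adjusted p 0.819), a fold of the means of 1.46 in place of 3.98. Cacybp and Sugt1, which encode proteins that bind S100a6, stood at 37.3, 42.4 and 36.8 units and 15.1, 18.7 and 16.4 units in control libraries. In mutant libraries they had 30.8, 45.9 and 28.2 units and 14.9, 17.8 and 14 units, with overlapping groups.

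S100a4 marks fibroblasts, macrophages and migrating cells, and it was close to absent from control crypts. It had 0.433, 0.211 and 0.304 units across the controls and 0.870, 1.28 and 4.65 across the mutants. These correspond to about 1 to 2 reads in each control library and about 4, 8 and 18 reads in mutant replicates 1, 2 and 3, from the steps at 500 bases. The groups did not overlap under any scaling tried, and the fold of the means was 7.17, or 3.4 without mutant replicate 3, with counting error not included. The log2 difference of 1.14 ± 0.41 did not pass (limma, adjusted p 0.589). The transcript of Gm42674 in GRCm38 was identical to S100a4 over 302 aligned bases, so reads may be shared. Markers of other cell types that express it were read beside it, and 0 of them passed in limma. Of 11 stromal markers, 9 had all mutant values higher than all control values, as did 6.39% of the genes in the table, and Thy1 and Pdgfrb did not. The 11 summed to 6.68 to 12.3 units in control and 21.4 to 48.2 units in mutant libraries, with Col3a1 at 3.09, 1.77 and 4.96 units in mutant and at most 0.13 units in control libraries. Of 10 macrophage and monocyte markers 5 were so separated, and the sums of the 10 overlapped, at 18.8 to 35.3 units in control and 26.4 to 72.3 units in mutant libraries. Pdgfra was listed at 0 in all 3 control libraries. The part of these cells in the S100a4 values was not tested.

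S100a8 and S100a9, the subunits of calprotectin, were listed at 0 in every control library and above 0 in every mutant library. S100a8 had 0.354, 0.782 and 3.98 units in mutant replicates 1, 2 and 3, and S100a9 had 0.408, 0.751 and 5.91 units. In mutant replicate 1 these correspond to only about 1 or 2 reads of each gene. In mutant replicate 2 they correspond to about 5 reads of each, and in mutant replicate 3 to about 16 reads of S100a8 and 23 of S100a9. No fold is given against a group at 0. S100a8 had a mean below 1 unit and was not tested, and S100a9 did not pass (unadjusted p of 0.050 and adjusted p of 0.589 in limma). The ratio of S100a9 to S100a8 was 1.15, 0.960 and 1.48 in the 3 mutant libraries, so the 2 subunits stood within a ratio of 1.48 of each other.

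Of 12 neutrophil markers 9 had a value above 0 in some library, and 6 were listed at 0 in every control library. Cxcr2, a chemokine receptor, had 1.4 to 2.82 units over the 6 libraries, and Csf3r, the receptor for granulocyte growth factor, 0.302 to 1.43 units with the highest value in mutant replicate 3. Elane, Ngp and Camp, which encode granule proteins of neutrophils, were listed at 0 in all 6 libraries, and Mpo had at most 0.03 units. Ly6g had 0.28, 0.64 and 0.40 units across the controls and 0.47, 0.14 and 0.74 across the mutants. The 12 neutrophil markers summed to 3.06 to 4.21 units in control libraries and to 3.88, 3.43 and 19.8 units in mutant replicates 1, 2 and 3. In mutant replicate 3, 12.5 of these units came from Ltf, which encodes lactoferrin, and 1.5 from Retnlg, a resistin-like gene of neutrophils. The part of such cells in the S100a8 and S100a9 values was not tested. The receptors stayed low in both groups: Ager had 2.05, 0.835 and 0.958 units across the controls and 1.3, 0.932 and 1.70 across the mutants, and Tlr4 had at most 0.097 units across the controls and 0.27 across the mutants.

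**Figure D3:**
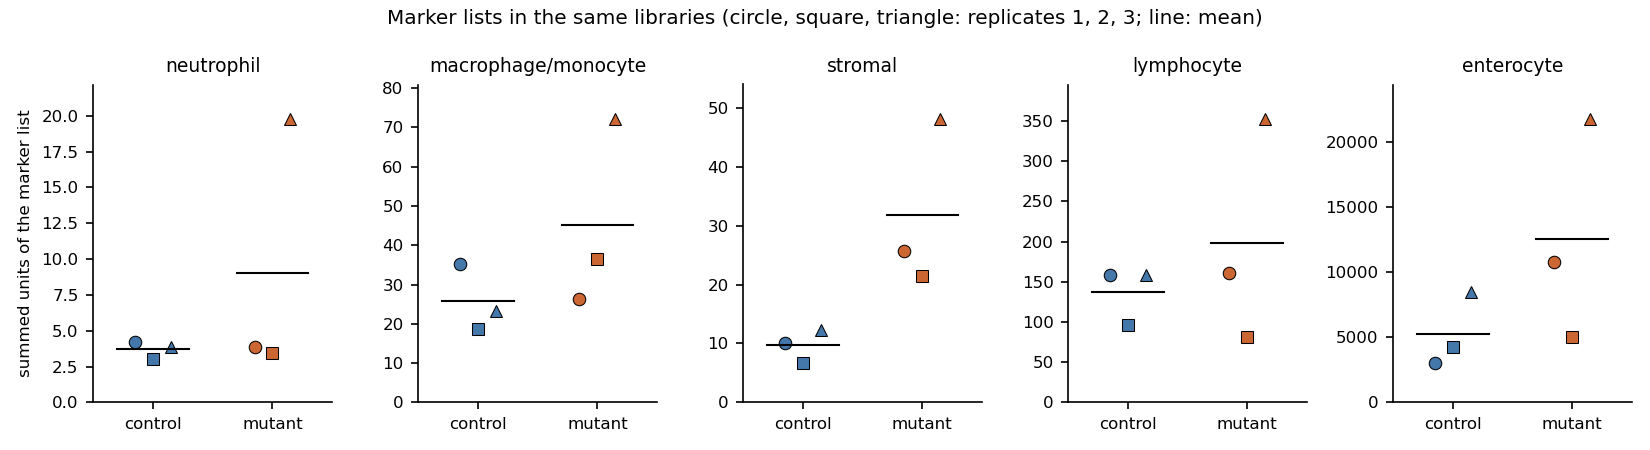
Summed units of 5 lists of cell type markers (y axis, linear, from 0) in the control and mutant libraries (x axis), with symbols for replicates 1, 2 and 3 and a line at the group mean. Stromal sums are separated between the groups, at 6.68 to 12.3 against 21.4 to 48.2 units, and mutant replicate 3 has the highest sum in all 5 lists.

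The start-site regions of these 2 genes and of S100a6 and S100a11 are shown because S100a8 and S100a9 were listed at 0 in control libraries and S100a6 and S100a11 were abundant members with log2 differences above 1. Each runs from 250 bases before to 50 bases after a start annotated by RefSeq on GRCm38.p6, which is not the build of the deposited values, and 8 of the 10 members were matched. Capitals mark matches, on either strand, to the TATA box TATAAA, the AP-1 word TGANTCA, the TEAD word GGAATG, or the TCF/LEF words, which are CTTTGAA or CTTTGAT and likewise CTTTGTA or CTTTGTT. The regions lie at chr3:90668821-90669120 on the plus strand for S100a8, at chr3:90695672-90695971 on the minus strand for S100a9, and on the plus strand at chr3:90612644-90612943 for S100a6 and chr3:93520246-93520545 for S100a11.
S100a8: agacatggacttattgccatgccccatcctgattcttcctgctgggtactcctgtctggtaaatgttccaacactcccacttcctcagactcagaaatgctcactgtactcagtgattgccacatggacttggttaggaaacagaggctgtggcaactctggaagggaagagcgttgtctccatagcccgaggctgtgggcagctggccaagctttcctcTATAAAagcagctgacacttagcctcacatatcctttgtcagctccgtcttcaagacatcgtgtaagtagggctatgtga
S100a9: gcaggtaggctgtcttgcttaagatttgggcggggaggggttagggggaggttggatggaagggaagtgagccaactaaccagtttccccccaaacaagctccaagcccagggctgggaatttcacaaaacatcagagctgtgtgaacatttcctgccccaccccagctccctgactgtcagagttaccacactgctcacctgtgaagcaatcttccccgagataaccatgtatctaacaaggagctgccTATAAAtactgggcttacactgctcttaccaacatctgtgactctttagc
S100a6: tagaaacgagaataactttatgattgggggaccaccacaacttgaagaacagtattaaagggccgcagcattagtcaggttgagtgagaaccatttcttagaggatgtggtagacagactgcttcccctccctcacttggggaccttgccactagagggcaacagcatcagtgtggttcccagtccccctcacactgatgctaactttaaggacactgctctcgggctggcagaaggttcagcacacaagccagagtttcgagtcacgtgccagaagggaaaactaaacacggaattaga
S100a11: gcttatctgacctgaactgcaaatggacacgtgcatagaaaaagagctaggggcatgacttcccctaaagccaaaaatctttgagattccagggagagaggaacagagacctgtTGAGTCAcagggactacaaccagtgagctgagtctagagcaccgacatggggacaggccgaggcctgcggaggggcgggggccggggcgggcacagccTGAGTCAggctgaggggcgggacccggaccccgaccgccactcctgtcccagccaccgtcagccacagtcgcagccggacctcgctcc
S100a8 and S100a9 each hold 1 TATA box, a word found in 13.6% of 32851 such regions in RefSeq, at 30 bases before the start in S100a8 and at the start itself in S100a9. S100a11 holds 2 AP-1 words, both TGAGTCA, where 7.81% of all regions hold at least 1. S100a6 holds none of the words. Over the 8 members with a region, 4 held the TATA box, 2 the AP-1 word, 1 (S100g) a TCF/LEF word, which 16.9% of all regions hold, and 0 the TEAD word, which 14.7% hold. No match overlapped one of another motif, and a match is only a match of letters.

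S100a14 and S100a16 are S100 proteins of epithelia, and S100a13 helps export proteins that lack a signal peptide, such as FGF1. S100a14 had 12, 4.79 and 6.29 units across the controls and 10.2, 14.3 and 27.4 across the mutants. Only mutant replicate 1 lay within the control range, and the log2 difference was 1.05 ± 0.42 (limma, adjusted p 0.589), or 0.68 ± 0.35 without mutant replicate 3. S100a16 varied little, with 40.6, 40.1 and 33.7 units across the controls and 41.4, 44.2 and 51.6 across the mutants. Its log2 difference was 0.25 ± 0.15 (limma, adjusted p 0.592). S100a13 was the one tested member with a negative difference over all 6 libraries, and that difference was smaller than its SE. It had 17.7, 13.2 and 11.8 units across the controls and 9.10, 11.2 and 16 across the mutants, with overlapping groups and a log2 difference of -0.23 ± 0.24 (limma, adjusted p 0.702). Its cargo Fgf1 had 12, 2.69 and 15.3 units across the controls and 1.80, 1.97 and 1.91 across the mutants. All 3 mutant values of Fgf1 lay below all control values, as for 8.37% of genes tested, with a log2 difference of -1.67 ± 0.52 (unadjusted p of 0.0154 and adjusted p of 0.589 in limma).

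S100g, the intestinal calbindin, showed no common direction. It had 9.93, 15.1 and 8.16 units across the controls and 7.05, 12 and 31.4 across the mutants. Mutant replicate 1 was the lowest and mutant replicate 3 the highest of all 6 libraries. The log2 difference was 0.36 ± 0.50 (limma, adjusted p 0.780) and turned to -0.20 ± 0.30 without mutant replicate 3. Enterocyte markers summed to 3027 to 8435 units in control libraries and to 10742, 5033 and 21777 units in mutant replicates 1, 2 and 3, so they were highest in the same library as S100g but were not lowest in mutant replicate 1. The ileal genes Fabp6 and Slc10a2 had all mutant values higher than all control values, as did 8.34% of genes tested (limma, adjusted p 0.589 each). Fabp6 had 156, 5.74 and 74.2 units across the controls and 174, 388 and 1101 across the mutants. Slc10a2 had 5.07, 2.38 and 3.13 units across the controls and 7.89, 5.35 and 28.4 across the mutants, both genes being highest in mutant replicate 3. Osr2, the third gene of that list, had 34.3, 33.0 and 40.2 units across the controls and 42.0, 34.8 and 17.0 across the mutants, lowest in mutant replicate 3. The part of cell type and gut region in the S100g values was not tested.

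Other genes of calcium absorption went both ways. Of 12 genes listed for vitamin D action and calcium transport, 6 were tested, 2 were higher and 4 lower, and 0 passed, had an unadjusted p under 0.05 in limma or had groups that did not overlap. Vdr, the vitamin D receptor that switches on S100g, had 82.7, 135 and 122 units across the controls and 95.7, 69.3 and 45 across the mutants, lowest where S100g was highest (log2 difference of -0.72 ± 0.31; limma, adjusted p 0.589). Cldn12 and Cldn15 were also lowest in mutant replicate 3, while Cldn2, Atp2b1, Atp2b4, Slc8a1 and Trpv6 were, like S100g, highest there. The apical calcium channel gene Trpv6 was listed at 0 in 5 libraries and at 0.056 units in mutant replicate 3. Atp2b1, the calcium pump of the basolateral membrane, had 19.6, 21.3 and 22.8 units across the controls and 29.3, 18.5 and 29.5 across the mutants. Of the claudins, which seal or open the paths between cells, Cldn2 had 64.5, 75.4 and 54.4 units across the controls and 62.0, 86.7 and 89.4 across the mutants. Cldn15 had 316 ± 66.3 and 246 ± 45.3 units.

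**Figure D4:**
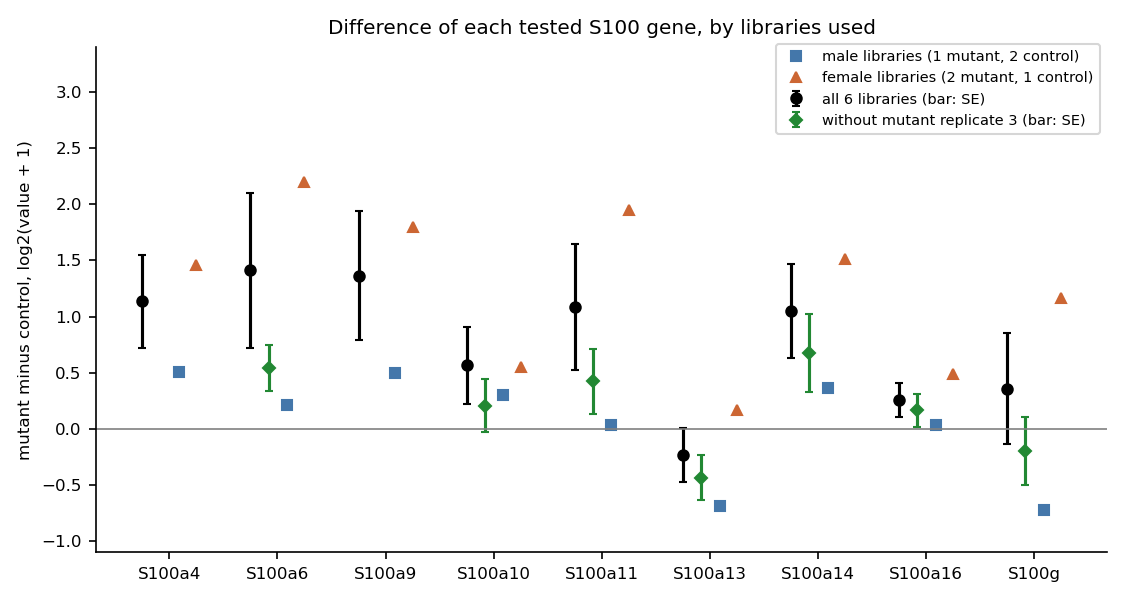
Mutant minus control on the log2(value + 1) scale (y axis) for the 9 tested S100 genes (x axis), with all libraries, without mutant replicate 3, and within male and female libraries; bars are SE and the within-sex points have none. S100a4 and S100a9 have no value without mutant replicate 3, since their mean then fell below 1 unit. For S100g and S100a13 the male and female points lie on opposite sides of 0.

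Split by sex, the signed differences were higher between female libraries, which include mutant replicate 3, than between male libraries for all 10 genes. In size the difference of S100a13 was smaller between female libraries, at 0.17, than between male libraries, at -0.69. Mutant replicate 1 against 2 male controls gave log2 differences of 0.21 for S100a6, 0.04 for S100a11, 0.30 for S100a10, 0.51 for S100a4 and 0.36 for S100a14. Between female libraries they were 2.19, 1.95, 0.55, 1.46 and 1.52. For S100a8 and S100a9 the values were 0.44 and 0.49 between male and 1.57 and 1.80 between female libraries. The difference between the sexes passed for 0 of the 9 tested members (adjusted p of 1.00 each in limma; unadjusted p from 0.0708 to 0.776), and 0 of the 11837 genes passed, with 254 at an unadjusted p under 0.05. Sex and library cannot be told apart here, with 1 mutant library among the males and 1 control library among the females.

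Among binding partners and receptors, 17 of 23 genes were tested, 10 were higher and 7 lower, with a median log2 difference of 0.04, and 0 passed in either direction (at an unadjusted p under 0.05 in limma, 2 higher and 1 lower, against 4.72 and 3.59% of all genes tested). The 2 were Anxa2 and Anxa1, of which Anxa1 reached the mean of 1 unit only through its mutant values, and the 1 was Fgf1. Mutant values all exceeded control values for 6 of the 23 genes, against 6.39% of the table, and all lay below them for 1, against 5.03%. Anxa1, the partner of S100a11, had 0.171, 0.055 and 0.280 units across the controls and 1.14, 1.51 and 8.93 across the mutants (limma, adjusted p 0.589). Mdm2, whose protein binds p53 and several S100 proteins, had 16.4, 15.2 and 16.4 units across the controls and 22.9, 21.2 and 68.6 across the mutants, with no overlap (limma, adjusted p 0.589). Both had their highest value in mutant replicate 3.

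Calcium sensors with EF hands outside the S100 family showed no common shift. Of 18 genes 17 were tested, 9 were higher and 8 lower, with a median log2 difference of 0.00. Of these, 0 passed in either direction. At an unadjusted p under 0.05 in limma there was 1 in each direction, against 4.72% of all genes tested higher and 3.59% lower. Mutant values all exceeded control values for 2 of the 18, against 6.39% of the table, and all lay below them for 2, against 5.03%. Capn2, a calcium-activated protease, had 1.92 ± 0.305 units across the controls and 5.17 ± 3.54 across the mutants, and Efhd2, an actin-binding EF-hand protein, had 77.7 ± 2.52 and 114 ± 35.9 units, both without overlap. Calml4, a calmodulin-like light chain of brush border myosin, stood the other way at 294 ± 50.3 and 210 ± 17.8 units, as did Gca, or grancalcin, at 9.97 ± 1.38 and 7.88 ± 0.427 units, also without overlap. These 4 genes had the smallest p of the list in limma, and the adjusted p was 0.589 for each.

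The remaining S100 genes of the table were low, apart from S100a1. S100a1, known from heart muscle and a neighbour of S100a13 with overlapping gene models, had 35.0, 39.6 and 27.8 units across the controls and 24.0, 27.8 and 34.4 across the mutants. Like S100a13 it was lower in the mean, by a log2 of -0.24 ± 0.19 (limma, adjusted p 0.643), and reads of the overlap cannot be assigned without strand. S100a5 was listed at 0 in the 3 control libraries and at 0.586, 0.216 and 0.660 units in mutant libraries, about 1 to 3 reads each. S100a3, S100a7a, S100b and S100z had values above 0 in some libraries only, with at most 1.52 units, and S100a2 was listed at 0 throughout. S100pbp, which encodes a protein that binds an S100 protein and is no S100 itself, had 3.10 ± 0.194 and 3.20 ± 0.779 units.

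**Figure D5:**
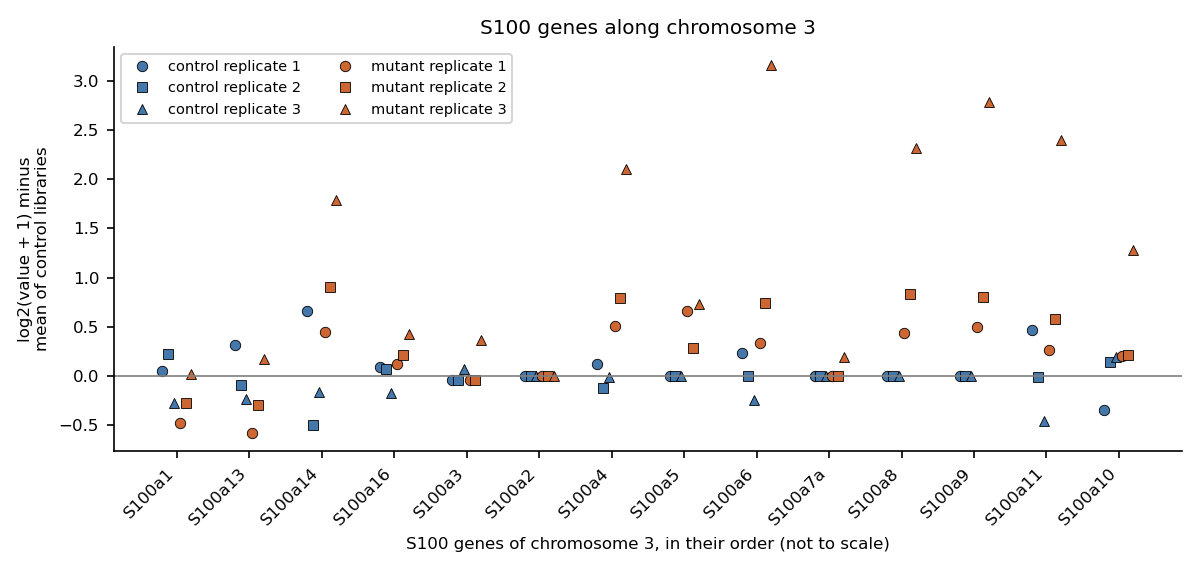
S100 genes of chromosome 3 in their order along it (x axis, not to scale) and log2(value + 1) of each library minus the mean of the control libraries (y axis), with symbols for replicates 1, 2 and 3. Of the 14 genes, 7 have all mutant values higher than all control values, as do 6.39% of the genes in the table. They are S100a4, S100a5, S100a6, S100a8, S100a9, S100a10 and S100a16. S100a1, S100a2, S100a3, S100a7a, S100a11, S100a13 and S100a14 do not.

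The pattern over the 6 libraries was compared with all other tested genes by the Pearson correlation of log2(value + 1), as a description of 6 values that share libraries and, for most members, a single high one. The 3 most similar genes for each member had r between 0.978 and 0.999. They were Zfp385a, Tnk2 and Adam8 for S100a6, Rnh1, Fut2 and Rnf169 for S100a11, Tm4sf20, Fbxo4 and BC029722 for S100a10, and Polk, Lrg1 and Ctu2 for S100a4. For S100a9 they were Serpinb5, Tat and Crip2, for S100a14 Phf21b, Mpp3 and Csrnp2, and for S100a16 Bag2, Bcam and Tlnrd1. S100a13 was most like Pea15a, Zfp512 and Zfp346, and S100g most like Bin3, Gpank1 and Lysmd2. Zfp385a, the gene closest to S100a6, had 0.284, 0.218 and 0.158 units across the controls and 0.515, 0.838 and 6.11 across the mutants. Pea15a, closest to S100a13, had 6.02, 4.08 and 2.93 units across the controls and 1.92, 2.60 and 5.57 across the mutants, a pattern that is low in mutant replicates 1 and 2 and not in mutant replicate 3.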

How the data were processed

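Per the labels' protocols, poly-A RNA of crypt epithelium was read on Illumina instruments. The authors deposited a normalized abundance signal for each gene. The submitters' processing notes name kallisto 0.46.1, DESeq2 1.40.1 and mm9 without a role. Group and replicate number in the column names identified the samples. Library medians of ratios lay between 0.990 and 1.01, and 0% of values above 0 were whole numbers, so the count model was not run. The step worth 1 read was fitted in each library on single-transcript genes with GENCODE lengths. With it 86.6 to 91.6% of low values lay within 0.2 of a whole step, but the step was chosen for this closeness, so the share is no check. The fit used longer transcripts and was extended to 500 bases. Among genes of 440 to 560 bases the 10th percentile of values above 0 was 0.147 to 0.249 units over the libraries, so read numbers are rough.

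The 11837 genes whose mean reached 1 unit were tested on log2(value + 1) by limma 3.58.1 (R 4.3.3; trend on mean abundance), in a model of group alone, and p-values were adjusted by Benjamini-Hochberg with a threshold of 0.05. Log2 differences understate changes of low genes. In simulated data 47.6% of genes given a log2 change of 1 were called, 83.6% of those given 2, and 0.0649% of unchanged genes. The simulated noise was independent between genes and libraries, with no library high for many genes at once, so these shares need not hold here. The members and lists were chosen with earlier results of these data known. Named genes were all S100 genes, the 4 genes of each partner list with the smallest p, Anxa2, Trpv6, Ager and Tlr4, and the 3 most correlated genes of each member; Cacybp, Sugt1 and marker genes were added after their values were seen. Alternatives were other scalings, filters and pseudocounts, array weights, a replicate block, sex, and leaving out each library. Near copies were sought with BLAST+ 2.17.0 in GRCm38 transcripts. The ratio of S100a9 to S100a8 was not tested, since both were at 0 in control libraries.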

Additional observations from a re-analysis of the deposited data

Results flagged for a closer look

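For S100g and S100a1 every mutant library lay below every control library of 1 sex and above that of the other. The log2 difference of S100g was -0.72 between male libraries, where mutant replicate 1 lay below both controls, and 1.16 between female libraries, where both mutants lay above the control. S100a1 had -0.61 between male and 0.15 between female libraries, and in the latter mutant replicate 2 exceeded the control by less than 0.1 units. S100a13, with log2 differences of -0.69 and 0.17, did not meet this, since mutant replicate 2 lay below the female control. Such separation in opposite directions was seen in 15.1% of all genes tested. As an interaction, the difference between the sexes did not pass for either gene (unadjusted p of 0.0708 and 0.112, adjusted p of 1.00 each in limma).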

How the results depend on the processing

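Of the S100 members, 0 passed in either direction under any alternative. The lowest adjusted p was 0.123 in limma, for S100a13 with array weights, where it was lower in mutant crypts (log2 difference of -0.61). Of 131 values of single members 129 kept their direction, but many had to. Filters and the replicate block leave a log2 difference unchanged, and leaving out a library cannot reverse a member whose groups do not overlap. This count is therefore no measure of stability. S100g reversed, to -0.39 with array weights and to -0.20 without mutant replicate 3, and reached 0.81 without mutant replicate 1. The median log2 difference of members was 0.33 with array weights, 0.48 with a pseudocount of 5, 0.57 when the filter was raised to 5 units, and from 0.21 (without mutant replicate 3) to 1.35 (without mutant replicate 1) when libraries were left out. Members with every mutant value above every control value numbered 3 with upper-quartile scaling and 6 to 8 with a library left out. Leaving a library out can add to the 6 of the main comparison but cannot take from them. With a library left out 0 to 1 lay below, the 1 being S100a13 without mutant replicate 3. Over all genes, 1 was higher with a pseudocount of 0.1, 1 with a pseudocount of 5, 20 with array weights and 0 to 2 with a library left out. Lower genes numbered 0 with no filter, with a pseudocount of 5 and with sex as a covariate, 7 with array weights, and 0 to 3 with a library left out. The cause was not tested. Whether same-numbered libraries shared more than a number cannot be told from so few libraries. Their deviations correlated at -0.29, 0.33 and 0.32, and 4 of 6 libraries correlated best with their own number. With the replicate block 0 genes were higher and 0 lower. For the ratio of S100a10 to Anxa2 the block cannot change the log2 difference of -0.32. An exact sign-flip permutation test over the 3 pairs gave p = 0.25, the smallest p that it can give. Low values such as those of S100a8 are limited by depth.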

Other observations

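Between S100a1 and S100a10 on chromosome 3 lie 54 other genes of the table, 16 of them Sprr genes of the cornified envelope. Of the 54, 12 had a value above 0 in any library and 4 were tested. None of the 4 had mutant values all above or all below control values. The 4 tested genes are of the small proline-rich family. Sprr1a had 0.448, 0.109 and 0.079 units across the controls and 0.787, 0.414 and 7.71 across the mutants. Sprr2a3 had 474, 164 and 10.8 units across the controls and 223, 197 and 2578 across the mutants. Sprr2a1 and Sprr2a2 are near copies of it whose reads can be split between them, and all 4 were highest in mutant replicate 3. These genes were chosen after their values were seen.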
